A study of Homo sapiens with 4 samples.

Results

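The CDKN1A locus was described as the set of p53 peaks whose summit lay in the CDKN1A gene body or within 25 kb of it in each of 4 peak lists. The rule found 9 of 6849 peaks. Tet-treated WT cells had 4 of 4326, Tet-treated K120R cells 3 of 2023, untreated WT cells 2 of 488 and untreated K120R cells 0 of 12. The 9 peaks fell at 4 places, named here by position as the distal element, the p21 response element (p21 RE), the proximal element and the intronic element. The study's list of 20-bp p53 response elements (REs) held 3 of its 1356 REs for CDKN1A, which were the distal, p21 and intronic ones and were used for position and sequence only.

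ChIP-seq, in which DNA fragments pulled down with an antibody are sequenced, was used to map p53 in the human lung cancer line H1299, which makes no p53 of its own. All cells were stable lines that expressed the Tet repressor and carried, under tetracycline (Tet) control, either WT or K120R p53 (Lys120 replaced by arginine). Each line was measured untreated and after 24 h of Tet, with 1 library per condition and 1 anti-p53 antibody (FL393-x) throughout. The Tet dose is 1 µg/µl in the sample labels and 1 µg/ml in the study's methods. Without replicates, no test compared conditions, and every interval given here is a 95% interval that covers counting error only. Peak lists hold no level of p53 or of any other protein, so neither the amount of p53 in each line nor the K120R substitution could be checked from them. ChIP libraries held 33059650 to 34857204 tags. Peak-calling fragment length was 170 bp for Tet-treated WT cells and 64 to 68 bp for the other 3 libraries, shorter than their 75-bp reads. Values from different lists are therefore set side by side and not divided by each other. Peaks were called with these lengths, so the presence or absence of a peak may depend on them too, which was not tested.

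CDKN1A encodes p21, an inhibitor of cyclin-dependent kinases (CDKs) that also binds PCNA, the sliding clamp of DNA replication. It is the best known effector of p53 in cell cycle arrest, and p53 activates it by binding REs near the gene. A p53 RE consists of a pair of 10-bp decamers, each with a 4-bp core between flanking purines and pyrimidines, and the p53 tetramer contacts both decamers. Lys120 lies in the DNA-binding domain and contacts DNA in the major groove. The bases next to the cores are those at positions 3, 8, 13 and 18 of the RE.

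CDKN1A (ENSG00000124762.14_6) lies on the plus strand of chromosome 6 from 36644237 to 36655114 on GRCh37, a gene body of 10878 bp with 8 annotated transcripts. The canonical transcript, CDKN1A-201, starts at 36646491, and distances below are counted from that base. A set of 3 transcripts with upstream starts, CDKN1A-208, CDKN1A-204 and CDKN1A-205, begins 2254, 2224 and 2186 bp further upstream. The window of 60878 bp, from 36619237 to 36680114, held 6 annotated genes. PANDAR, a long noncoding RNA on the minus strand (36641398 to 36642903), starts 3588 bp upstream of the canonical start. DINOL, another minus-strand long noncoding RNA (36645386 to 36646336), starts 155 bp upstream of it. The others were a Y_RNA, the pseudogene LAP3P2 and the protein-coding gene RAB44, whose start lies 19112 bp downstream of the canonical CDKN1A start.

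The 4 elements are shown so that their sequences can be read beside their peaks. Each line gives the plus strand of GRCh37 from 5′ to 3′, with the 20-bp RE in capitals and 5 bases of the reference to either side. The distal, p21 and intronic REs were taken from the listed positions, and the list writes the intronic one as the reverse complement. The proximal RE was not listed, and is the match with the fewest mismatches to the p53 consensus RE under the proximal peaks of Tet-treated cells.
distal RE: acaaaAGACAAGCCCGGGCAAGGCCagcgg
p21 RE: gtcagGAACATGTCCCAACATGTTGagctc
proximal RE: tagagGAAGAAGACTGGGCATGTCTgggca
intronic RE: agaaaCTGCAAGTTGGGACTTGTCCctagg

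The distal RE (chr6:36635035-36635054) ends 11437 bp upstream of the canonical start and lies in no annotated gene. It had 1 mismatch to the consensus, at position 18 counted from its 5′ end, and both of its cores were intact. It carried a G/C bp at 3 of the 4 positions next to the cores (8, 13 and 18), more than any other RE of the locus.

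The p21 RE (chr6:36644226-36644245) ends 2246 bp upstream of the canonical start. Its first 11 bases lie before the annotated gene start, and the last 9 lie in the UTR of CDKN1A-208. It had 2 mismatches, at positions 11 and 20 at the ends of the second decamer, no core mismatch and an A/T bp at all 4 positions next to the cores.

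The proximal RE (chr6:36645108-36645127) ends 1364 bp upstream of the canonical start, in an intron of the 3 transcripts with upstream starts. It had 2 mismatches, at positions 4 and 8. Position 4 is in the core of the first decamer, which reads GAAG, whereas the second decamer matched the consensus at all 10 positions. A G/C bp stood at 1 of the 4 positions (13).

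The intronic RE (chr6:36650420-36650439) is centred 3938.5 bp downstream of the canonical start, in an intron of 6 CDKN1A transcripts and in the UTR of CDKN1A-202. On the plus strand it had 3 mismatches, at positions 1, 2 and 10, all in the first decamer and outside its core. A G/C bp stood at 1 of the 4 positions (3). A spacer between the decamers allowed a match with 2 mismatches (36650430 to 36650451, spacer 2 bp), but both of these fell in a core.

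Over all 4326 peaks of Tet-treated WT cells, 20.2% held an RE without a spacer and with at most 1 mismatch, 53.9% one with at most 2 and 81.9% one with at most 3. Within 75 bp of the summit, in windows of 151 bp, the shares were 19.7%, 51.9% and 77.9%. In 8652 windows of the same length placed 3000 bp to either side of these summits, they were 0.0347%, 0.428% and 3.57%. The locus thus had 1 RE of the closer kind, 2 of the middle kind and 1 with 3 mismatches, which spans the usual range under WT peaks.

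Tet-treated WT cells had a peak at all 4 places. MACS reports for each peak the pileup at its summit, the number of overlapping fragments after scaling, and the fold enrichment, which is pileup plus 1 over local background plus 1. The p21 RE peak (36643892 to 36644623) held 312 fragments (exact Poisson interval 278.3 to 348.6) over a background of 5.10, a fold enrichment of 49.7 and a −log10 q of 402.8. The proximal peak (36644794 to 36645496) held 108 fragments (88.6 to 130.4) with a fold enrichment of 20.2, and the intronic peak (36650223 to 36650635) held 94 (76.0 to 115.0) with 18.7. The distal peak (36634867 to 36635310) held 81 fragments (64.3 to 100.7) with a fold enrichment of 19. The interval of the p21 RE peak lay far above those of the other 3, which overlapped one another. The order of the distal, proximal and intronic peaks was not tested.

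In Tet-treated K120R cells, 3 of the 4 places had a peak. The p21 RE peak (36643785 to 36644566) held 85 fragments (67.9 to 105.1) over a background of 1.34, with a fold enrichment of 34.4 and a −log10 q of 100.96. The proximal peak (36644857 to 36645330) held 29 fragments (19.4 to 41.6) with a fold enrichment of 7.02, and the intronic peak (36650227 to 36650581) held 25 (16.2 to 36.9) with 9.26. No K120R peak was called at the distal RE. The p21 RE peak again stood above the others, whose intervals overlapped each other.

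Untreated WT cells had 2 peaks. That at the p21 RE (36643910 to 36644568) held 71 fragments (55.5 to 89.6) over a background of 0.792, with a fold enrichment of 40.2 and a −log10 q of 104.7. The other (36644834 to 36645010) held 11 fragments (5.49 to 19.7), with a fold enrichment of 6.70 and a −log10 q of 5.52. No peak was called at the distal or intronic element, and untreated K120R cells had no peak anywhere in the window or elsewhere on chromosome 6.

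**Figure D1:**
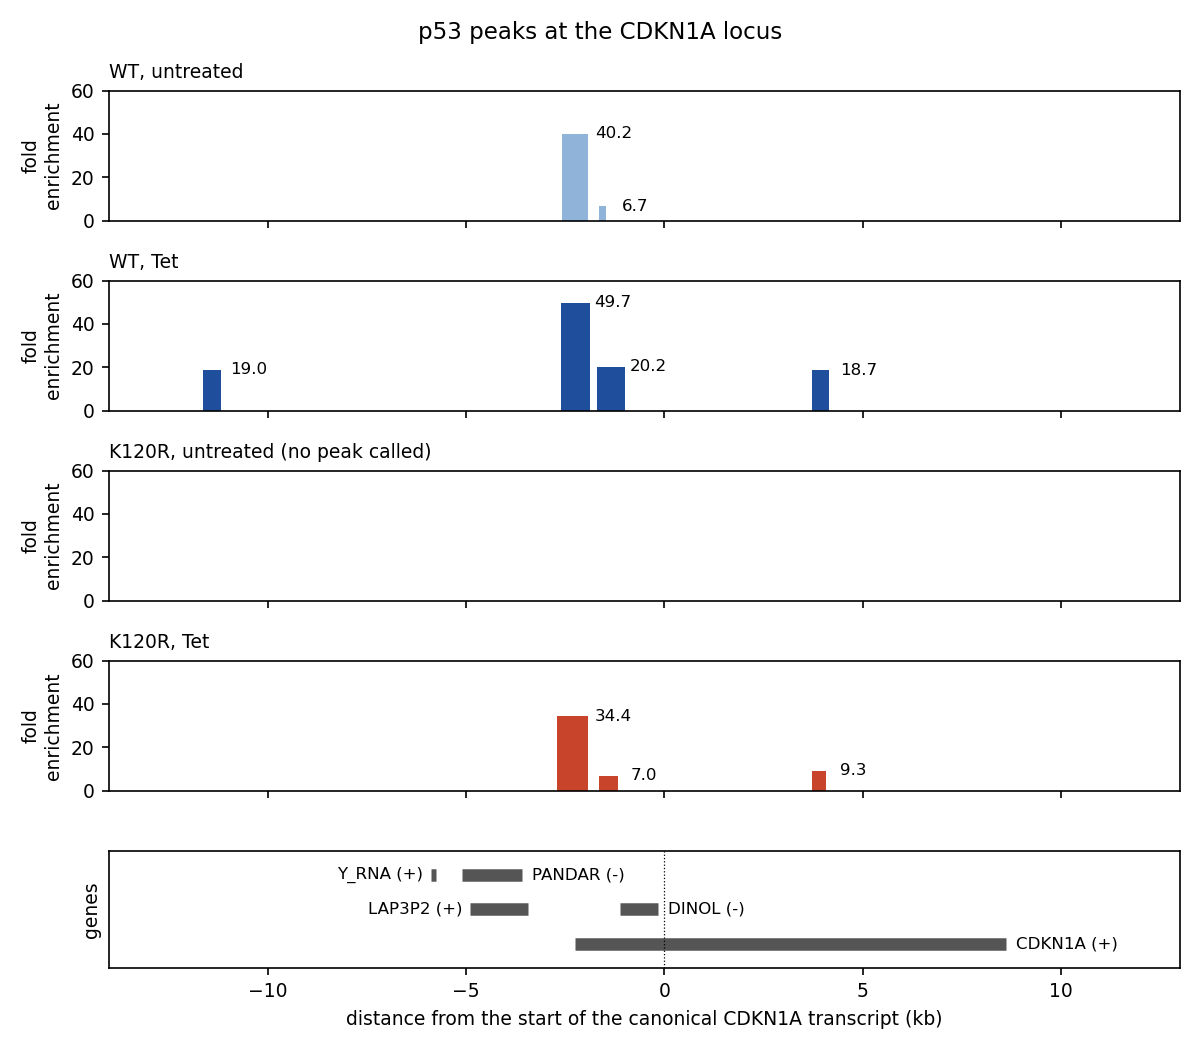
Fold enrichment (vertical axis, the same scale in all 4 libraries) of every peak of the locus against distance from the start of the canonical CDKN1A transcript in kb, with bars as wide as the peaks and annotated genes and their strands at the bottom. The p21 RE peak is the highest bar of each library that has peaks (40.2, 49.7 and 34.4), and the distal peak (19) is present in Tet-treated WT cells only; RAB44 lies to the right of the area drawn.

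Summits lay close to the REs wherever an RE was covered. The distances from summit to RE centre were 12.5 bp at the distal RE, 7.5 to 16.5 bp at the p21 RE over 3 libraries, 6.5 and 7.5 bp at the intronic RE, and 7.5 (WT) and 20.5 bp (K120R) at the proximal RE. Between the Tet-treated libraries, the summits of a shared element differed by 9 bp (p21 RE), 13 bp (proximal) and 14 bp (intronic). The proximal peak of untreated WT cells was the exception. Its summit lay 214 bp upstream of the summit in Tet-treated WT cells and 227 bp upstream of that in Tet-treated K120R cells, and the peak ended 97 bp before the proximal RE. The best match without a spacer under this peak, at 36644857 to 36644876, had 5 mismatches, 2 of them in a core. Matches this loose were found in 56.9% of the 151-bp windows away from WT peaks.

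The stretch between these summits is shown because the proximal peaks of untreated and Tet-treated cells overlap without sharing a summit. It is the plus strand of GRCh37 at chr6:36644890-36645149, 260 bp in an intron of the 3 transcripts with upstream starts, with the proximal RE in capitals at bases 219 to 238.
proximal stretch: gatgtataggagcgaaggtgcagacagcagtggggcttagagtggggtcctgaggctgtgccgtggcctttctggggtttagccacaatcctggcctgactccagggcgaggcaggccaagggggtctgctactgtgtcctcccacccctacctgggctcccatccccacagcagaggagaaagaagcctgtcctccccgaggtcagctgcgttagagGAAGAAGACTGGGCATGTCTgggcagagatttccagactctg
The summit of untreated WT cells is at base 22 of this stretch, that of Tet-treated WT cells at base 236 and that of Tet-treated K120R cells at base 249. The Tet-treated WT peak at this place also ran into an exon at the 3′ end of DINOL, whereas the other peaks at this place ended before it.

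The effect of Tet on WT p53 was read from the presence of peaks. Of the 4 peaks in Tet-treated WT cells, 2 overlapped a peak of untreated WT cells by at least 1 bp, against 9.27% of all 4326. The overlap at the p21 RE joined summits 26 bp apart. That at the proximal element joined summits 214 bp apart, and with summits required to lie within 200 bp only the p21 RE counted as shared. Both peaks of untreated WT cells overlapped a peak of Tet-treated WT cells, as did 84.8% of that list. Among WT peaks with a fold enrichment within 20% of that at the p21 RE, 71 of 76 (93.4%, exact Clopper-Pearson interval 85.3 to 97.8%) had a peak in untreated cells, and among those within 20% of the distal peak 95 of 430 did (22.1%, 18.3 to 26.3%). For the intronic peak the count was 93 of 444 (20.9%, 17.3 to 25%) and for the proximal peak 95 of 377 (25.2%, 20.9 to 29.9%). The p21 RE therefore had the outcome of most peaks of its strength, and so did the distal and intronic elements, for which no peak was called before Tet. The proximal element, shared by overlap and not by summit, had the outcome of the minority.

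The sizes of the peaks called in untreated WT cells were set beside those absences. In Tet-treated WT cells the distal and intronic peaks held 0.260 (0.201 to 0.332) and 0.301 (0.237 to 0.381) of the fragments at the p21 RE. Applied to the 71 fragments at the p21 RE of untreated cells, these ratios correspond to 18.4 and 21.4 fragments, and 56.4% and 64.1% of the 488 peaks called in that library had fewer. At the lower bounds of the ratios the values were 14.3 and 16.8 fragments, with 37.5% and 48.6% of called peaks having fewer. At the proximal place, the ratio of 0.346 corresponds to 24.6 fragments (19.6 at its lower bound), whereas the peak called there held 11, at another summit. The ratios come from a library with a fragment length of 170 bp and are applied to one of 64 bp, so they need not carry over. As sites that were not called cannot be counted either, the part of depth in these absences was not tested.

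For K120R p53, Tet was the difference between 3 peaks and 0. None of the 3 overlapped a peak of untreated K120R cells, as against 0.445% of the 2023 peaks of Tet-treated K120R cells. The same held for WT peaks, with 0 of 4 overlapping an untreated K120R peak (0.139% of that list). In untreated cells, neither of the 2 WT peaks had a K120R counterpart (1.84% of the 488 did). With 12 peaks in all, the untreated K120R list gives little basis for a comparison at any one gene.

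WT and K120R p53 were compared after Tet. A K120R peak overlapped 3 of the 4 WT peaks, against 25.2% of all WT peaks, and all 3 K120R peaks overlapped a WT peak, as did 56.8% of the K120R list. The WT peaks of the locus were stronger than most of their list, at 2.44 to 6.50 times its median fold enrichment, and so were compared with WT peaks of like strength. Among those within 20% of the fold enrichment at the p21 RE, 66 of 76 had a K120R peak (86.8%, 77.1 to 93.5%). The shares at the strength of the proximal, distal and intronic peaks were 189 of 377 (50.1%), 190 of 430 (44.2%, 39.4 to 49.0%) and 188 of 444 (42.3%, 37.7 to 47.1%). A K120R peak was therefore present at most WT peaks with the strength of the p21 RE. It was absent at the larger number of those with the strength of the distal and intronic elements, and about as often present as absent at the strength of the proximal element.

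The distal and intronic REs make a pair of nearly equal WT strength, 19 and 18.7 in fold enrichment, of which the intronic one had a K120R peak and the distal one had none. They differed in G/C bps next to the cores, 3 at the distal RE and 1 at the intronic RE, and the distal RE was the closer match to the consensus. Among the 274 listed REs with a WT fold enrichment of 15.2 to 22.8, the band around the distal RE, a K120R peak was present at 32 of 35 with 0 such G/C bps (91.4%, 76.9 to 98.2%) and at 39 of 64 with 1 (60.9%, 47.9 to 72.9%). It was present at 34 of 100 with 2 (34.0%, 24.8 to 44.2%), at 10 of 64 with 3 (15.6%, 7.76 to 26.9%) and at 1 of 11 with 4 (9.09%, 0.230 to 41.3%). REs of the band with 0 or 1 mismatches, as the distal RE has, had a K120R peak in 49 of 117 cases (41.9%, 32.8 to 51.4%), close to the 42.3% of the whole band. Over all 1334 listed REs with a WT peak, the shares were 77.6% (121 of 156) with 0 such G/C bps, 55.7% with 1, 34.3% with 2, 18.3% with 3 and 14.3% (9 of 63) with 4. These counts stand beside the distal and intronic REs as a description, and the part of G/C bps or of mismatches in the difference between these 2 sites was not tested. The study defined this contrast between positions on a list that includes the same REs, so the counts are not independent of it. Any G or C at these positions was counted here, also where it is a mismatch, as at position 18 of the distal RE. The classes with 3 and 4 held 289 and 63 of the 1334 REs. The study's own classes of this kind are smaller, although its list is longer, so the classes used here are not the study's. The reason for this difference was not tested.

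**Figure D2:**
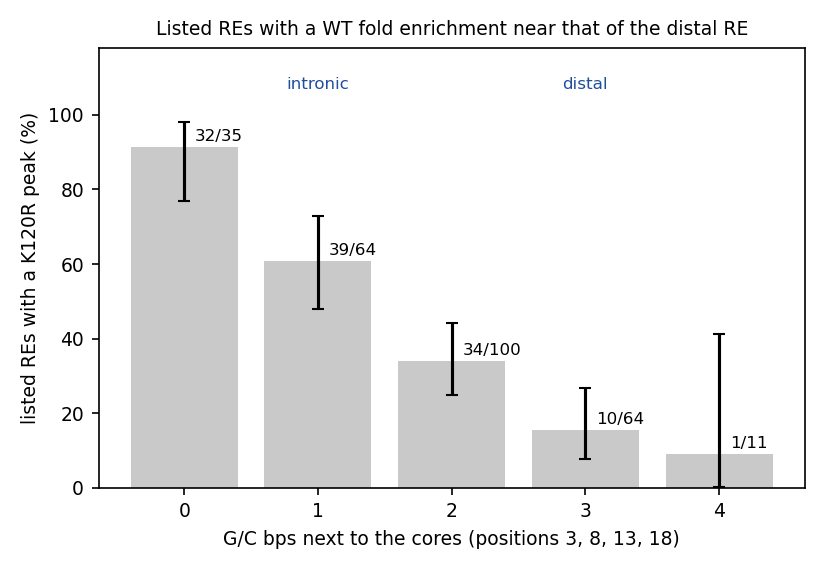
Percentage of listed REs with a K120R peak in Tet-treated cells (vertical axis) by how many of the 4 positions next to the cores carry a G/C bp (horizontal axis), for the 274 listed REs with a WT fold enrichment of 15.2 to 22.8. Grey bars are shares, lines are exact Clopper-Pearson 95% intervals and numbers are REs with a K120R peak over all REs. The share is 91.4% at 0 and 9.09% at 4, where 11 REs give a wide interval, and the names mark the classes of the intronic RE (1) and the distal RE (3).

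The lack of a distal K120R peak was also set beside the sizes of the peaks called. At the WT ratio of 0.260 to the p21 RE peak, the distal element would correspond to 22.1 K120R fragments, or to 17.1 at the lower bound of that ratio. Of the 2023 K120R peaks, 1544 (76.3%) held fewer than the former and 1153 (57.0%) fewer than the latter. These shares describe called peaks only. The ratio comes from a library with another fragment length, and sites of that size that were not called cannot be counted, so the part of depth in the missing distal peak was not tested.

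The weaker peaks that both forms shared held nearly the same ratio of fragments to the p21 RE peak in both. The proximal peak held 0.346 (0.275 to 0.432) of the fragments of the p21 RE peak for WT p53 and 0.341 (0.216 to 0.526) for K120R p53 after Tet. The intronic peak held 0.301 (0.237 to 0.381) and 0.294 (0.180 to 0.464), respectively. Both pairs differed by much less than their intervals, which leave room for moderate differences. The WT ratios rest on a fragment length of 170 bp and the K120R ratios on 68 bp, so they need not be comparable. In fold enrichment the ratios were 0.406 and 0.204 at the proximal element and 0.376 and 0.269 at the intronic element. The local background moved with this. In K120R cells it was 3.00 at the proximal peak and 1.34 at the p21 RE peak, a ratio of 2.24, against 0.830 in WT cells. In untreated WT cells the proximal peak had 0.155 (0.0740 to 0.294) of the fragments at the p21 RE. This was below the point estimate in both Tet-treated libraries, with an interval that overlapped theirs. The summit of the untreated peak lay 214 bp upstream of that in Tet-treated WT cells, and the peak did not reach the proximal RE. The ratio therefore belongs to another position.

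**Figure D3:**
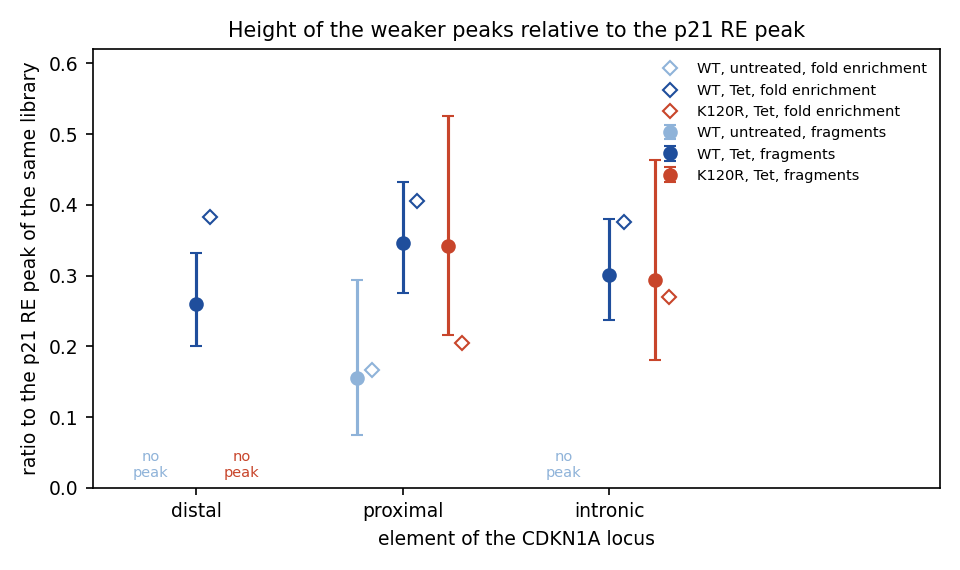
Height of the distal, proximal and intronic peaks as a ratio to the p21 RE peak of the same library (vertical axis). Filled circles are ratios of fragments with exact 95% intervals and open diamonds are ratios of fold enrichment, for untreated WT (light blue), Tet-treated WT (dark blue) and Tet-treated K120R cells (red). The proximal peak of untreated WT cells has its summit 214 bp upstream of that in Tet-treated WT cells. The circles of both Tet-treated libraries lie at 0.346 and 0.341 (proximal) and at 0.301 and 0.294 (intronic), whereas the diamonds of K120R cells lie lower, at 0.204 and 0.269.

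Among all peaks of its library, the p21 RE ranked first of 2023 for K120R p53 in fold enrichment, with 34.4 against 30.3 for the next, and first in −log10 q. In Tet-treated WT cells it ranked 46 of 4326 in fold enrichment, 7 in −log10 q and 4 in pileup, and in untreated WT cells it ranked 6, 9 and 47 of 488. Local background moved with these differences between measures. The 45 WT peaks with a higher fold enrichment after Tet had a median background of 2.05, against 5.10 at the p21 RE. The 46 peaks of untreated WT cells with more fragments had a median background of 36.6, against 0.792. For K120R p53, 10 peaks had more fragments, on backgrounds of 2.00 to 47.0, and none of them reached a fold enrichment above 27.4. Relative to the median fold enrichment of its own list, the p21 RE stood at 5.51 times in untreated WT, 6.50 times in Tet-treated WT and 5.12 times in Tet-treated K120R cells.

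The ranks of the other elements differed between lists and measures. In Tet-treated WT cells the proximal, distal and intronic peaks ranked 462, 517 and 535, within the top 10.7 to 12.4% by fold enrichment. For K120R p53 the intronic peak ranked 467 of 2023 by fold enrichment (top 23.1%), 387 by pileup and 388 by −log10 q. The proximal peak ranked 935 by fold enrichment (top 46.2%), 260 by pileup and 478 by −log10 q, beside the higher local background at this peak. The proximal peak of untreated WT cells ranked 284 of 488 by fold enrichment (top 58.2%), 424 by pileup and 338 by −log10 q. Among the listed REs alone, the p21 RE ranked 45 of the 1334 that had a WT peak, the distal RE 431 and the intronic RE 443, and for K120R p53 the p21 RE ranked first and the intronic RE 238 of 541.

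The peaks of Tet-treated WT cells formed a cluster. Successive summits lay 9187 bp (distal to p21 RE), 906 bp (p21 RE to proximal) and 5311 bp (proximal to intronic) apart, and in K120R cells the last pair of gaps was 910 and 5284 bp. A second summit as close as 906 bp was found for 56 of the 4326 WT peaks (1.29%). The nearest WT summits outside the window lay 68.1 kb to the left and 283.7 kb to the right of the gene body.

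At least 1 WT peak of Tet-treated cells lay in the gene body or within 25 kb for 3851 of 20136 protein-coding genes (19.1%), and 1 of untreated WT cells for 2.60%. For K120R p53 the shares were 9.48% after Tet and 0.0348% without it. At least 4 WT peaks, as CDKN1A has, were found for 23 genes (0.114%). Of the 5572 genes no longer than CDKN1A, it was the only one. At least 3 K120R peaks were found for 51 genes (0.253%), and at least 2 peaks of untreated WT cells for 26 (0.129%). The genes with most WT peaks were FRG1 with 10, BCAS3 with 7 and MAGI2 with 6, and ENSG00000286192, MAD1L1, METTL15, MYO3B and TMEM117 had 5 each. All of these have longer bodies than CDKN1A, from 22333 bp (FRG1) to 1436612 bp (MAGI2), and a longer body gives a wider window. By listed REs, CDKN1A was 1 of 9 among 1219 gene names with 3, the largest number for any name. A K120R peak was present at 2 of its 3, against 541 of all 1334 listed REs with a WT peak (40.6%).

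**Figure D4:**
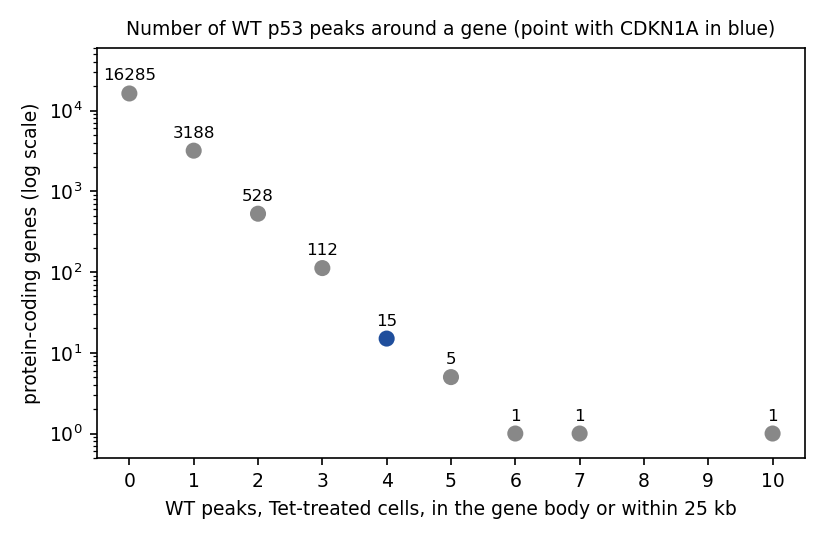
Number of protein-coding genes (vertical axis, log scale) by the number of WT peaks of Tet-treated cells in the gene body or within 25 kb (horizontal axis). Most genes (16285) had none, 3188 had 1, and CDKN1A is 1 of 15 genes with 4 (blue point), with 8 genes above it.

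The genes whose pattern over the 4 lists was most like that of CDKN1A were found by the Euclidean distance of log2 maximal fold enrichment, with 1 where no peak was called. The nearest were GAS6 and TMEM255B, which share their strongest peaks, at a distance of 0.290. They had 43.2 in untreated WT, 44 in Tet-treated WT and 29.8 in Tet-treated K120R cells. LACTB and RPS27L had a distance of 0.419 (38.0, 48.1 and 25.9). APBB2 and ENSG00000289761 were at 0.608 (46.9, 40.8 and 24.5), and CAMK4 and STARD4 at 0.712 (30.9, 74.1 and 30.3). None of these 8 genes had a peak in untreated K120R cells, and each had 1 or 2 WT peaks after Tet, against 4 at CDKN1A.

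Among 7 CDK inhibitor genes (CDKN1A, CDKN1B, CDKN1C, CDKN2A, CDKN2B, CDKN2C and CDKN2D), CDKN1A was the only one with a p53 peak in its window, in any library. With 19.1% of all protein-coding genes having a WT peak after Tet, 1 of 7 is near the background and says nothing of the family. Of 10 genes whose products p21 binds or acts with (CDKs, cyclins and PCNA), 3 had a WT peak after Tet, 2 a K120R peak and 1 a WT peak without Tet, set against 19.1%, 9.48% and 2.60% of all genes. CDK1, the mitotic kinase, had fold enrichments of 22.5 (WT) and 16.8 (K120R) after Tet, at a summit 17412 bp upstream of its start. PCNA had 9.53 in untreated WT, 11.7 in Tet-treated WT and 6.05 in Tet-treated K120R cells. CDK6, a kinase of the G1 phase, had 2 WT peaks after Tet, the stronger at 6.35, and none in the other lists.

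Of 10 p53 targets of cell cycle arrest, CDKN1A included, 9 had a WT peak after Tet, 6 a K120R peak after Tet, 6 a WT peak without Tet and 0 a K120R peak without Tet. The shares over all protein-coding genes were 19.1%, 9.48%, 2.60% and 0.0348%, respectively, and the list was drawn from known p53 targets. In Tet-treated WT cells, 2 of them exceeded the 49.7 of CDKN1A, which were PLK2 (61.4), a polo-like kinase, and ZMAT3 (53.5), an RNA-binding zinc finger protein. For K120R p53 these had 10.3 and 12.5, below the 34.4 of CDKN1A. GADD45A, a stress protein that inhibits CDK1, came next at 39.5 for WT and 19.1 for K120R p53. CCNG1, cyclin G1, had 14.5 and 8.09. PLK3 (21.5), BTG2 (11.2), an antiproliferative cofactor, and SFN (5.06), which encodes 14-3-3 sigma, had a WT peak and no K120R peak. CDC25C, the phosphatase that activates CDK1, had no peak in any list. CDKN1A was the only gene of the list with more than 1 WT peak.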

How the data were processed

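ChIP-seq peak lists of p53 from 4 conditions of H1299 cells, 1 library each, were used, with conditions taken from the sample labels. The authors aligned 75-bp reads to GRCh37 (hg19) with BWA-MEM, kept uniquely aligned reads, and called peaks per library against its own input with MACS 2.1.1.20160309 at a q-value cutoff of 0.05, 1 tag per position and the larger library scaled to the smaller. The deposited pileup is a signal, the scaled number of fragments over the summit. The deposited fold enrichment is a ratio to the local background, and the deposited p-values and q-values are on the −log10 scale. ChIP libraries held 33059650 to 34857204 tags and inputs 32480936 to 41132992. The 3 files of each library held the same peaks.

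Pileup divided by the authors' scaling gave whole fragments in 100% of peaks (tolerance 0.02). Genes came from GENCODE release 44 on GRCh37. Fragments carry exact Poisson intervals, shares exact Clopper-Pearson intervals, and ratios of fragments intervals derived from those of shares, all covering counting error only. REs were searched on both strands for the fewest mismatches to the p53 consensus RE, with spacers of 0 to 13 bp where stated. A gap in a peak list means that no peak was called. Genes named were CDKN1A, those in its window, members of 3 pathway lists with a peak, the 5 most similar patterns (with genes sharing the same peaks) and up to 5 with most WT peaks, ties included, and some of the genes that this rule selects are not reported here. The CDK inhibitor genes without a peak and CDC25C fall outside this rule and were named with their values known. The members and lists were chosen with earlier results of these data known. The study's cpm values were not used. Alternatives were stricter peak thresholds, other windows, other overlap rules, other measures of height and other searches for REs. The overlap, window and RE searches were tested on simulated data and recovered 100% of 1000 overlaps, 100 windows and 500 planted elements. Software was Python 3.11.15 (pandas 2.3.3, numpy 2.4.6, matplotlib 3.10.9, pysam 0.24.0, scipy 1.17.1).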

Additional observations from a re-analysis of the deposited data

How the results depend on the processing

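Of 65 alternatives over 21 results, 53 left a count, rank or number of mismatches within 1.5 times of its value, or a ratio of heights within its counting interval, and 12 moved it. With a minimum −log10 q of 10, untreated WT cells kept 1 peak at the locus and 1 of the Tet-treated WT peaks was shared with them, in place of 2 each. The shared count was also 1 with summits within 100 bp and with summits within 200 bp. Ranked by pileup, the p21 RE was 47 in untreated WT, 4 in Tet-treated WT and 11 in Tet-treated K120R cells, in place of 6, 46 and 1 by fold enrichment, and by −log10 q it was 7 in Tet-treated WT cells. By pileup, the distal peak of WT cells had a ratio of 0.260 to the p21 RE peak (0.383 by fold enrichment), and the proximal peak of K120R cells one of 0.341 (0.204). Genes with at least 4 WT peaks numbered 39 with windows of 50 kb and 13 with a −log10 q of at least 10, in place of 23. The 4 WT and 3 K120R peaks after Tet, the 3 shared places and the 0 peaks of untreated K120R cells did not change under any alternative run. No rank was given for untreated K120R cells, which had no peak to rank. No paired analysis was possible because each condition had 1 library. Counting error is the only error measured, and the fewest fragments in a called peak were 7 in untreated WT, 12 in Tet-treated WT and 8 in Tet-treated K120R cells.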

Other observations

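A search of the whole window of 60878 bp for REs without a spacer and with at most 2 mismatches to the p53 consensus RE found 4 matches. The distal, p21 and proximal REs were 3 of them, each under a peak of Tet-treated WT cells. The other, at 36676119 to 36676138 on chromosome 6 in an intron of RAB44, lay under no peak of any library. Its 2 mismatches both fell in a core, whereas the distal and p21 REs had no core mismatch and the proximal RE had 1. The intronic RE, with 3 mismatches, was outside this search.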
